A study of Mus musculus with 138 samples.

Results

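The 10 genes described here encode transcription factors and matrix proteins that mark cartilage, and their RNA was followed through the sutures of the embryonic mouse skull, where flat bones grow without a cartilage model. They are the factor genes Sox9, Sox5 and Sox6 and the matrix genes Acan, Hapln1, Cnmd, Comp, Matn1, Matn3 and Snorc. They form a functional group, and the rule that lists them uses no measured value. They are 10 of 55487 genes counted, and 8 of the 19768 genes that passed the filter on low counts, since Matn3 and Snorc reached 1 CPM (counts relative to library size, the unit of all levels below) in 8 and 4 of 100 libraries and were not tested.

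Bulk RNA-seq was made from regions that were laser-captured from C57BL/6J embryos at E16.5 and E18.5. A region was either suture mesenchyme (SM), the tissue between adjacent bones, or an osteogenic front (OF), the growing edge of a bone, which was frontal (FR), parietal (PA) or interparietal (IP). The coronal suture gave SM, FR and PA, the lambdoid suture SM, IP and PA, the sagittal suture SM and PA, and the frontal suture SM and FR, which makes 20 groups of a suture, age and region with 5 embryos each. Further data were second libraries of 18 coronal samples, 16 libraries of complete sutures at E18.5, and 4 single-cell libraries of dissociated coronal sutures, with 2 pools of embryos at each age. The embryos carry no mutation or treatment, and the 2 ages come from different litters, so that litter cannot be told apart from age, while some litters are shared between sutures. In captured tissue, fewer cells of a type and less RNA per cell cannot be told apart.

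As background, SOX9 is the factor that commits mesenchymal cells to cartilage, and SOX5 and SOX6, which lack a transactivation domain of their own, act with it on cartilage genes. Aggrecan (Acan) is the large proteoglycan that gives cartilage its resistance to compression, and the link protein of Hapln1 fastens it to hyaluronan. Chondromodulin (Cnmd) is an inhibitor of vessel growth made by avascular cartilage, COMP and the matrilins of Matn1 and Matn3 are adaptor proteins that join collagens and proteoglycans, and Snorc encodes a small membrane proteoglycan of chondrocytes. The calvarial bones form within mesenchyme, while cartilage lies beneath and beside some of the sutures.

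In the mm10 coordinates of the count files, Sox9 lies at chr11:112782224-112787760, Sox5 at chr6:143828425-144781977 and Sox6 at chr7:115470872-116038796. Acan lies at chr7:79053483-79115099, Hapln1 at chr13:89539796-89611652, Cnmd at chr14:79637690-79662170 and Comp at chr8:70373558-70382066. Matn1 lies at chr4:130944385-130955475, Matn3 at chr12:8947929-8972028 and Snorc at chr1:87470271-87475482. The counts cover the exons of each gene, and Sox5, Sox6 and Cnmd lie on the minus strand.

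SOX proteins contact short runs such as ACAAAG and ACAATG, and promoters of Sox5 and Sox6 hold such runs. Of 7 members with a promoter in the RefSeq table (GRCm38.p6), Sox5 holds ACAAAG or ACAATG on either strand in the 250 bases before the start listed there, which lies inside the gene as counted, and Sox6 does so in 5 of its 6 promoters. Acan, Hapln1, Cnmd, Matn1 and Matn3 hold neither string there. Of all 32851 promoters in the table, 25.24% hold 1 or more. The stretches below are shown because Sox5 and Sox6 are the members whose promoters hold such a run, with the run in capitals and the minus strand read 5′ to 3′. They lie at chr6:143947243-143947272 for Sox5 and, for Sox6, at chr7:116038840-116038869, chr7:115995145-115995174 and chr7:115824823-115824852, where they belong to 3 different starts.
Sox5, an inner start: gactgaagagacACAATGgttgtgaatact
Sox6, the outermost start: tttttttcaggaACAAAGggaatgtggaaa
Sox6, an inner start: gttacctcaagtACAATGatgatactttga
Sox6, the innermost of these starts: tcccctgtgctcACAAAGggctcataactt
A match describes the letters of a window and is no evidence of binding.

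The captured libraries held 7305627 to 34518477 counts each, with a median of 14244957, so that 3 counts were worth 0.0869 to 0.411 CPM. The captured regions matched their labels by the bone gene Ibsp, which lay at 986 to 19594 CPM in the OF libraries and at 0 to 486 CPM in the SM libraries. The summed level of 13 osteoblast markers, Ibsp among them, overlapped between SM and OF in the frontal suture at both ages and in the sagittal suture at E16.5. In the frontal suture at E18.5 it was 24074 to 31168 CPM in SM and 24547 to 39558 CPM in FR. The 15 coronal libraries of E16.5 stood apart, with the most counts but a count for only 17274 to 22824 genes, against 20627 to 28397 in the others. Their replicates also spread more, at a median SD of 1.02 on the log2 scale against 0.28 to 0.583 in the other sutures and ages. Col2a1, the defining collagen of cartilage, had group medians of 0.239 to 2.01 CPM in the coronal regions and of 2.17 to 240.4 CPM elsewhere.

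Each SM was compared with each OF of its suture and age by the quasi-likelihood test of edgeR, fitted to all 20 groups at once, with Benjamini-Hochberg adjustment over all tested genes. Of the 96 tests of members in these 12 comparisons, 34 were higher in SM, 6 were higher in OF and 56 did not pass the threshold of 0.05. The calls in SM came from Acan in 12 comparisons, Sox5 in 10, Cnmd in 8, Sox6 in 3 and Comp in 1. The calls in OF came from Sox9 in 3, Sox6 in 2 and Hapln1 in 1. Over all genes, the share called in either direction in the coronal suture was 30.3% for SM against FR and 35.6% for SM against PA in the E16.5 embryos and 3.46% and 18% in those of E18.5. It was 7.91% and 11.1% in the frontal suture and 17.7% and 25.3% in the sagittal suture at E16.5 and E18.5. In the lambdoid suture it was 11.2% against IP and 23.1% against PA for E16.5, and 19.6% and 24.6% for E18.5. Without the coronal E16.5 libraries, the remaining 80 tests gave 34 calls in SM and 6 in OF. The equal counts do not mean an unchanged result, since calls of the full fit in the removed comparisons are gone. Of 152 member tests of all kinds in that refit, 19 calls were gained and 1 lost, and the share of all genes called was not counted. Calls gained in that refit, here and below, thus have no background beside them. When the coronal E16.5 libraries were fitted by themselves, where 2.96% (FR) and 4.98% (PA) of all genes were called, no member passed.

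**Figure D1:**
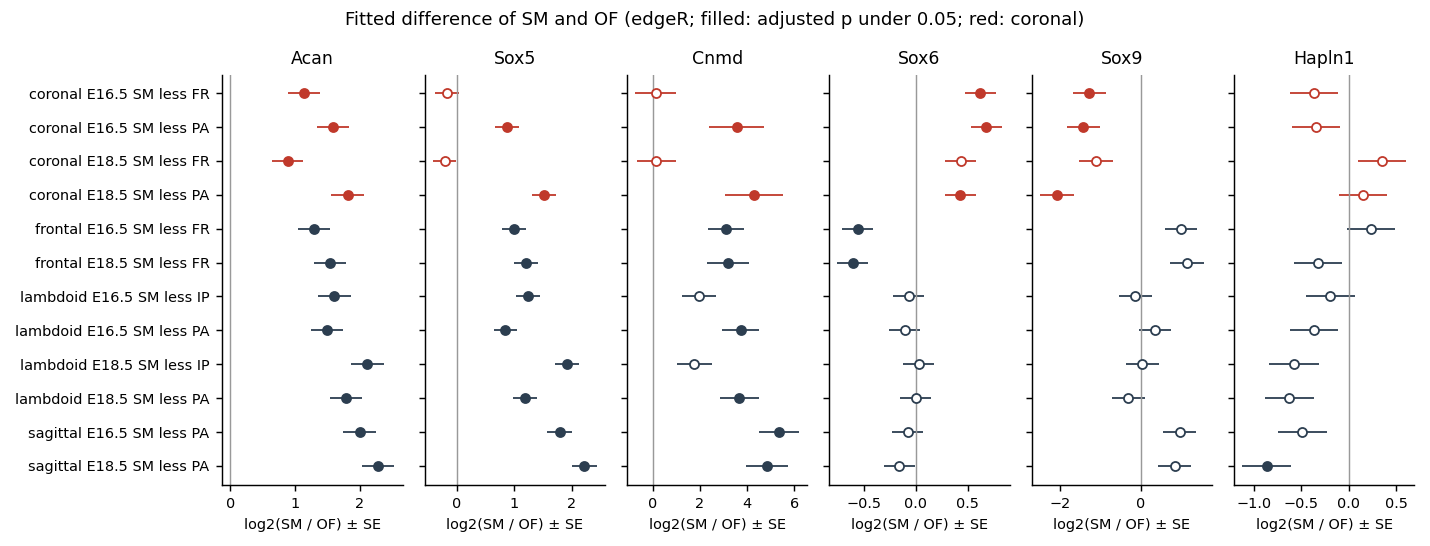
Log2 difference of SM less OF for 6 members in the 12 comparisons, with its standard error. Filled points passed an adjusted p of 0.05 (edgeR) and coronal comparisons are red. Acan lies above 0 in all 12, Sox9 and Sox6 take opposite sides in the coronal suture, and Cnmd reaches 5.35 in the sagittal suture.

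Sox9 was lower in SM than in OF in the coronal suture and tended the other way in the frontal and sagittal sutures. In coronal SM at E18.5 its level was 4.64, 1.25, 3.71, 4.40 and 4.58 CPM, against 4.54, 17.1, 14.2, 16.4 and 26.1 CPM in PA and 5.70, 11.5, 7.60, 6.58 and 8.58 CPM in FR. Every SM library lay below every FR library, and 4 of the 5 PA libraries lay above every SM library. The difference from PA was −2.08 ± 0.42 on the log2 scale (SE, edgeR adjusted p = 8.13e-05), and that from FR was −1.10 ± 0.41 (adjusted p = 0.135, and 0.0128 without the coronal E16.5 libraries). The summed levels of 15 chondrocyte markers, none of them a member, and of 13 osteoblast markers moved the same way. The first was 372 to 672 CPM in SM against 889 to 1590 CPM in FR and 917 to 1819 CPM in PA, and the second was 8617 to 10901 CPM against 17036 to 30386 and 27322 to 47189 CPM. The chondrocyte list holds Col11a1, with group means of 485 to 1898 CPM after TMM scaling, while Col2a1 was low in the coronal regions. In the mean of SM less OF, Col11a1 (−0.25), Col11a2 (−4.75) and Chad (−2.12) were lower in SM. Col2a1 (1.59), Col9a1 (0.45), Col9a2 (2.12), Col9a3 (1.485) and Matn4 (2.12) were higher. The chondrocyte sum is thus no measure of cartilage cells in the coronal regions.

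In the younger embryos, Sox9 in coronal SM was 3.33, 9.41, 0.540, 3.89 and 1.88 CPM, against 4.95, 5.12, 25.5, 4.72 and 5.97 CPM in FR and 3.21, 7.20, 22.9, 12.2 and 5.58 CPM in PA. The groups overlapped, and the embryo numbered 3 held both the highest OF values and the lowest SM value. The differences were −1.27 ± 0.41 from FR (edgeR adjusted p = 0.0130) and −1.42 ± 0.41 from PA (0.00450). Without the libraries numbered 3 in all 20 groups both edgeR calls were lost, at adjusted p = 0.822 and 0.268. With the embryo as a replicate block the difference from FR had an adjusted p of 0.0935. Below, a fit without an embryo leaves that number out of every group. Embryos of other sutures and ages then leave the fit too. The chondrocyte sum was 243 to 508 CPM in coronal SM of E16.5, against 1146 to 2013 CPM in FR and 818 to 1224 CPM in PA. The limit given above for this sum holds here too. The osteoblast markers also ran this way, at 5073 to 11193 CPM in SM against 16530 to 44975 CPM in FR and 30646 to 38106 CPM in PA. The part of either list in the results of the 2 ages was not tested.

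In the frontal suture at E16.5 the order was turned, with Sox9 at 19.3, 25.99, 20.1, 18.6 and 22.0 CPM in SM and at 8.45, 15.9, 9.71, 10.9 and 8.26 CPM in FR, and no overlap. The difference of 0.99 ± 0.40 did not pass in the fit of all groups (edgeR adjusted p = 0.132). The other 3 comparisons of the frontal and sagittal sutures lay at 0.84 to 1.14 with adjusted p of 0.0603 to 0.127, of which the frontal one at E18.5 passed without embryo 3 (0.0195), by DESeq2 (0.0383) and with the second coronal libraries (0.0191). That fit put the 18 second libraries in place of the first ones of the same samples, so that each coronal group mixed both kinds. By limma-voom both E16.5 comparisons passed (0.0273 in the frontal and 0.0288 in the sagittal suture), and the sagittal one also passed with the second libraries (0.0402). All 4 passed when the coronal E16.5 libraries were left out, at adjusted p of 0.00555 to 0.0337, and when each suture and age was fitted by itself, at 4.09e-06 to 0.0443. The share of all genes called was not counted for that refit or for these separate fits. In the lambdoid suture the 4 differences ran from −0.32 to 0.35 and none passed. The summed level of 5 tendon markers moved with Sox9 in the frontal and sagittal sutures, at 538 to 731 CPM in frontal SM of E16.5 against 289 to 372 CPM in FR. The chondrocyte sum, which holds Col11a1 and Col11a2, did so at E16.5, at 2166 to 2608 CPM in sagittal SM against 908 to 1355 CPM in PA. At E18.5 it overlapped in both sutures. Their part in the result was not tested.

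Sox5 was higher in SM in every suture, except against the frontal front of the coronal suture. In the sagittal suture at E18.5 it was 114, 113, 107, 104 and 102 CPM in SM and 24.6, 22.6, 22.6, 21.8 and 24.5 CPM in PA, a gap far wider than the range of either group. The difference was 2.22 ± 0.22 (edgeR adjusted p = 9.12e-15), and the frontal, lambdoid and sagittal comparisons together ran from 0.84 to 2.22, with no overlap of groups in any of the 8. How many of all genes did not overlap there was not counted. In the coronal suture SM exceeded PA by 0.87 ± 0.21 at E16.5 and 1.52 ± 0.21 at E18.5, yet against FR the differences were −0.18 ± 0.21 (adjusted p = 0.552) and −0.22 ± 0.21 (0.747). Coronal FR at E18.5 held 38.3, 28.9, 61.6, 35.6 and 50.03 CPM, against 25.2, 40.8, 43.5, 26.9 and 48.2 CPM in SM, while PA held 7.42 to 16.9 CPM. FR and SM overlapped, with 2 of the 5 FR libraries above the highest SM library. In the second coronal libraries of that age FR lay at 29.4 to 46.1 CPM of library totals, above the SM at 15.7 to 20.9 CPM. In the sagittal suture at E18.5, 5 tendon markers summed to 596 to 827 CPM in SM against 175 to 236.5 CPM in PA. There 8 skeletal muscle markers were at 18.1 to 23.5 against 1.13 to 3.03 CPM. The 13 osteoblast markers went the other way, at 28144 to 37866 against 44629 to 60226 CPM. Their part in the Sox5 result was not tested.

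Sox6 was the most abundant of the 3 factor genes in every group, and its group means were highest in the coronal suture. This rank of the coronal suture rests on the first libraries. In its second libraries of E16.5, FR and PA held 191 to 219 and 174.5 to 252.5 CPM of library totals. Lambdoid IP of that age held 271 to 314 CPM on the same scale. Complete coronal sutures held 110 to 177 CPM, against 155 to 220 CPM in complete lambdoid ones. In the first libraries, coronal SM at E16.5 held 777, 650, 747, 804 and 774 CPM, against 513, 288, 377, 474 and 784 CPM in FR and 531, 356, 410, 475 and 574 CPM in PA. The SM lay above every PA library, with 1 FR library inside its range. The differences were 0.62 ± 0.15 (edgeR adjusted p = 7.00e-04) and 0.68 ± 0.15 (1.67e-04), and at E18.5 they were 0.43 ± 0.15 from FR (0.0926, and 0.0371 with a replicate block) and 0.43 ± 0.15 from PA (0.0307, and 0.2495 without embryo 2 and 0.0969 without embryo 4).

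The frontal suture showed the opposite order for Sox6. At E18.5 its SM held 195.7, 156, 155, 178 and 156 CPM and its FR held 227, 251, 223, 276 and 304 CPM, without overlap. The differences of SM less FR were −0.56 ± 0.15 at E16.5 (edgeR adjusted p = 0.00619, and 0.0696 and 0.0965 without embryo 3 or 4) and −0.61 ± 0.15 at E18.5 (0.00217). The 6 lambdoid and sagittal differences lay between −0.16 and 0.03, and none passed. The second coronal libraries, in place of the first ones of the same samples, gave a mix that entered the shared estimate of spread. With that mix the frontal differences stayed at −0.56 and −0.62 with edgeR adjusted p of 0.149 and 0.0770.

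The coronal suture was set against the other sutures by a test of the difference itself, which took SM less OF averaged over the 2 coronal ages minus its mean over the 6 other sutures and ages, with the fronts of a suture averaged first. It was −2.12 ± 0.31 for Sox9 (edgeR adjusted p = 1.02e-07), −0.96 ± 0.15 for Sox5 (7.79e-07) and 0.79 ± 0.11 for Sox6 (9.04e-09). These 3 of 8 members passed, beside 21.3% of all genes. All 3 differences kept their sign without the coronal E16.5 libraries, at −2.22, −0.80 and 0.69. Acan (−0.42 ± 0.18, adjusted p = 0.0816) and Hapln1 (0.34 ± 0.18, 0.188) did not pass by edgeR. DESeq2 also called Acan and limma-voom also called Cnmd, which made 4 of 8 members by each tool.

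**Figure D2:**
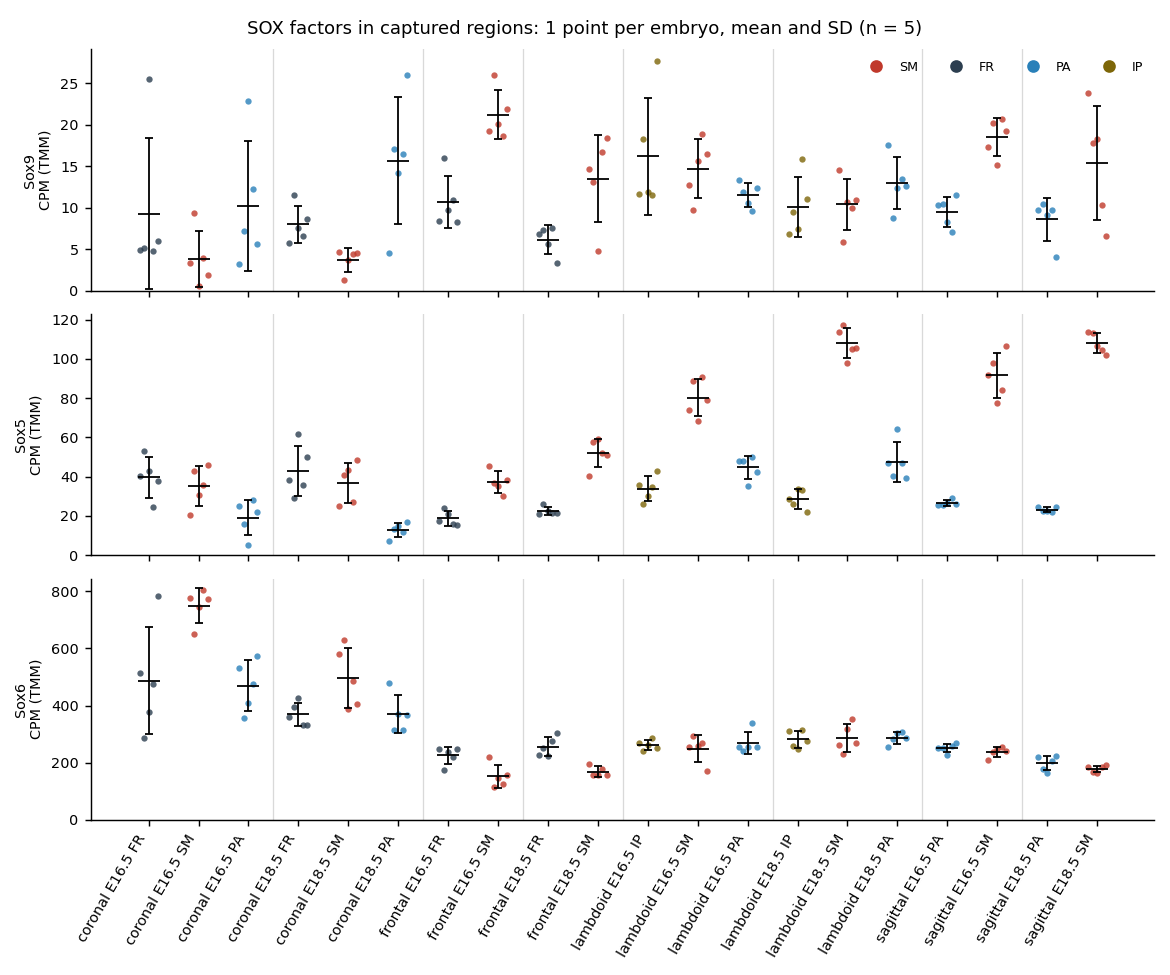
Sox9, Sox5 and Sox6 in every captured library, in CPM after TMM scaling, with 1 point per embryo and the mean and SD of 5. Sox9 falls to its lowest group mean of 3.71 CPM in coronal SM at E18.5, Sox5 rises to 108 CPM in lambdoid and sagittal SM, and Sox6 rises to 750.4 CPM in coronal SM at E16.5.

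Per kilobase of counted exon, the scale on which genes can be compared, the group means of Sox6 were 10.3 to 50.6 CPM. On the same scale, those of Sox5 were 0.896 to 7.52 and those of Sox9 0.899 to 5.12 CPM per kilobase. Sox6 exceeded both partners in each group, and among the matrix genes Acan (2.57 to 35.8) reached above Cnmd (up to 14.8) and Hapln1 (2.85 to 9.29). Over the 20 group means, a description without a test, the log2 levels of Sox9 and Sox6 had a Pearson r of −0.75. There the 6 coronal groups share high Sox6, which rests on the first libraries. Sox5 followed Cnmd and Acan with r of 0.75 and 0.70.

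Acan, the aggrecan gene, was higher in SM than in OF in all 12 comparisons. In the sagittal suture at E18.5 it was 246, 227, 281, 299.8 and 282 CPM in SM and 67.8, 51.2, 57.3, 47.7 and 50.4 CPM in PA, so that the lowest SM library was over 3 times the highest PA library. The difference was 2.28 ± 0.25 (edgeR adjusted p = 2.39e-12). The lambdoid SM of the same age held 222 to 324 CPM against 48.9 to 73.7 CPM in IP and 66.8 to 91.7 CPM in PA. The summed level of 5 tendon markers moved with Acan in the frontal, lambdoid and sagittal sutures, for example at 596 to 827 CPM in sagittal SM of E18.5 against 175 to 236.5 CPM in PA, and in the coronal suture it overlapped between SM and OF. Its part in the result was not tested.

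The coronal suture shared this order in its group means. In the E16.5 embryos its SM held 39.5 to 104 CPM of Acan, against 6.20 to 44.2 CPM in FR and 9.42 to 34.2 CPM in PA. There SM and FR overlapped, and in embryo 1 FR (42.9 CPM) lay above SM (39.5 CPM). Both calls of that age were lost when those libraries were fitted by themselves. At E18.5 coronal SM held 299.9, 185, 219, 186 and 225 CPM of Acan, FR 107, 138, 124, 125 and 110 CPM and PA 48.8, 50.6, 63.1, 73.8 and 81.7 CPM, with no overlap between SM and either front. The differences were 0.89 ± 0.24 from FR (edgeR adjusted p = 0.0189) and 1.81 ± 0.25 from PA (1.06e-08). Without embryo 1, 3 or 4 the first was 0.74, 0.89 and 0.95, and its adjusted p rose to 0.128, 0.0803 and 0.0621. The summed level of 10 macrophage markers moved with Acan, at 210 to 324 CPM in SM against 121 to 202 CPM in FR and 73.98 to 138 CPM in PA, and its part in the result was not tested. Col2a1 was at 0 to 1.79 CPM in these same coronal SM libraries, so that Acan at 185 CPM or more was measured there where the defining cartilage collagen was near 0.

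Hapln1, whose product links aggrecan to hyaluronan, did not follow Acan. Its group means ran from 16.8 to 54.8 CPM and its lowest level was in sagittal SM at E18.5, at 17.98, 16.4, 20.7, 15.48 and 13.7 CPM, against 36.0, 31.2, 24.8, 26.3 and 35.3 CPM in PA. These groups did not overlap, with a difference of −0.87 ± 0.26 (edgeR adjusted p = 0.00711). Lambdoid SM at E18.5 also lay below both fronts without overlap, at −0.58 ± 0.26 from IP (0.114) and −0.63 ± 0.26 from PA (0.0673), and with a replicate block both passed, at 0.0285 and 0.0131. No other comparison of Hapln1 passed. The sum of 13 osteoblast markers was also lower in SM without overlap, at 28144 to 37866 against 44629 to 60226 CPM in the sagittal suture at E18.5. In the lambdoid suture of that age it was 17669 to 20862 CPM against 30369 to 36975 (IP) and 34217 to 40528 CPM (PA). The chondrocyte sum, which holds Col11a1 and Col11a2, was lower without overlap in the lambdoid SM only, at 680 to 985 CPM against 1213 CPM or more. Their part in the result was not tested.

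Cnmd, the chondromodulin gene, had the largest differences between SM and OF of the members at more than a few counts. In the sagittal suture at E16.5 it was 19.1, 37.2, 20.8, 30.6 and 29.0 CPM in SM and 0.0600, 0.177, 1.37, 0.528 and 1.16 CPM in PA. The difference of 5.35 ± 0.86 (edgeR adjusted p = 5.11e-07) was joined by 4.85 ± 0.88 at E18.5, by 3.10 and 3.19 in the frontal suture and by 3.72 and 3.68 against lambdoid PA. Against lambdoid IP, which held 2.52 to 9.91 CPM at E16.5, the difference was 1.96 ± 0.73 (0.0695, and 0.0350 with a replicate block) and at E18.5 it was 1.76 ± 0.74 (0.0846, and 0.0445).

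In the coronal suture Cnmd was close to absent, with group means up to 0.328 CPM. SM was called above PA at both ages, on 30 against 2 counts in the younger and 37 against 1 in the older embryos. Those ratios were 17.2 (4.37 to 149) and 44.2 (7.45 to 1792), as 95% exact intervals that cover counting error only. Without embryo 5 the adjusted p values were 0.0524 and 0.287. Col2a1 moved with Cnmd, at group medians of 27.8 to 240.4 CPM in the frontal, lambdoid and sagittal SM and 2.17 to 85.7 CPM in their fronts, and so did the summed level of 5 tendon markers, at 289 to 999.7 CPM in the SM and 150 to 417 CPM in the fronts. That of 8 skeletal muscle markers did so too, with group medians of 14.2 to 79.0 CPM in the SM and 0.270 to 15.2 CPM in the fronts, where the highest was lambdoid IP at E16.5. Their part in the result was not tested.

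**Figure D3:**
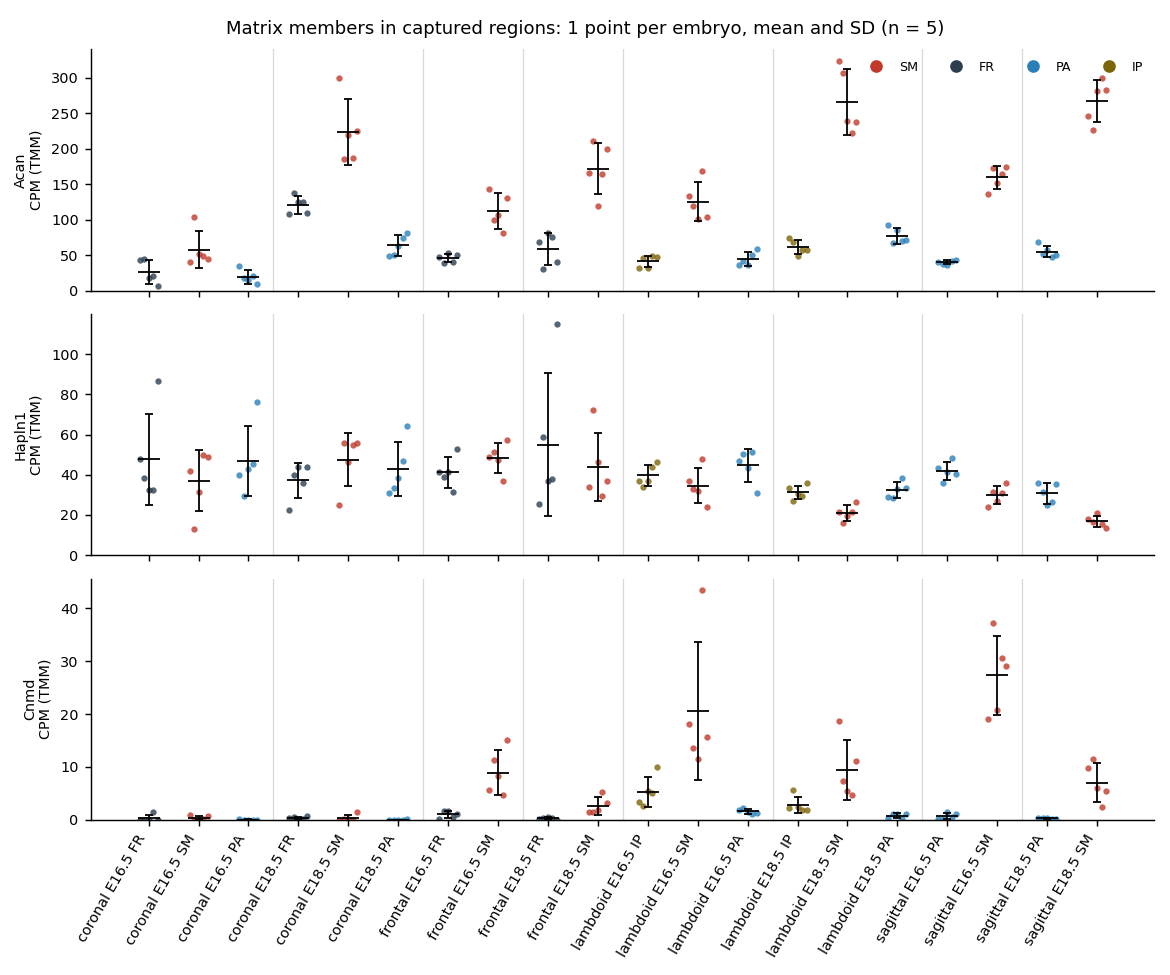
Acan, Hapln1 and Cnmd in every captured library, in CPM after TMM scaling, with 1 point per embryo and the mean and SD of 5. The group mean of Acan is higher in each SM than in its fronts, with SM and FR libraries overlapping in the coronal suture at E16.5. Hapln1 stays between group means of 16.8 and 54.8 CPM, and Cnmd peaks at 27.3 CPM in sagittal SM at E16.5 and is near 0 in the coronal suture.

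Comp, Matn1, Matn3 and Snorc, which mark differentiated cartilage matrix, were near the limit of detection. Group means reached 1.59 CPM for Comp in sagittal SM at E16.5, 2.84 for Matn1, 0.908 for Matn3 and 0.538 for Snorc, the last 3 in lambdoid IP at E16.5. Of 100 libraries, 17 held no count of Comp, 55 none of Matn1, 39 none of Matn3 and 76 none of Snorc. Comp was called in coronal SM over PA at E16.5, where SM held 0, 77, 7, 17 and 0 counts and PA none, which puts SM at least 38.7-fold higher over a floor of 3 counts in the group, with an exact 95% lower limit of 30.9 that covers counting error only. Of these 101 counts, 77 came from embryo 2, and without it SM was at least 8.69-fold higher over that floor, with a lower limit of 6.54. The call is against a group at 0 counts. In FR of that age, embryo 4 held all 26 counts of Comp and all 28 counts of Cnmd, and neither gene passed between SM and FR (edgeR adjusted p = 0.200 and 0.943). Without embryo 4 FR is at 0 counts and the adjusted p values were 0.000648 and 0.00384, which are given as a description, since that embryo held every count of the group. Matn1 passed in none of 12 comparisons by edgeR and in none of 10 by DESeq2, with 3 at an unadjusted p under 0.05, and limma-voom called 1, lambdoid SM over PA at E16.5. Of the 15 libraries that brought Matn1 past the filter, 13 were lambdoid SM or IP, so that this call compares a group that let the gene in and is a description. There SM held 2.32, 0.580, 2.18, 1.68 and 3.70 CPM and PA held 0.103 to 0.539 CPM. Where both groups held no count of Matn1, as in frontal SM and FR at E18.5, its comparison could not pass.

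Averaged over the 8 sutures and ages, with the fronts of a suture averaged first, SM exceeded OF by 1.67 ± 0.08 for Acan (edgeR adjusted p = 4.76e-34), 1.22 ± 0.07 for Sox5 (8.47e-30), 3.26 ± 0.28 for Cnmd (1.21e-18) and 1.10 ± 0.32 for Comp (0.00210). Hapln1 was lower in SM by −0.30 ± 0.08 (0.00144). These were 5 of 8 members, beside 55.4% of all genes, of which 5449 were higher and 5497 lower. Sox9 (0.12 ± 0.13) and Sox6 (−0.05 ± 0.05) did not pass. Without the coronal E16.5 libraries Comp fell to 0.64 ± 0.29 (0.0525), while Sox9 reached 0.33 ± 0.11 (0.00636) and Sox6 −0.15 ± 0.05 (0.00314).

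The second question was how the members differed between E16.5 and E18.5 within a region. Of 80 tests, 5 were higher at E18.5, 4 of them Acan and 1 Comp, 3 were lower, 2 of them Sox6 and 1 Sox5, and 72 did not pass. Over all genes the share called was 27.1% in coronal SM, 24.4% in coronal FR and 20.6% in coronal PA. Elsewhere it was 2.33% (SM) and 4.34% (FR) in the frontal suture, 2.96% (SM), 0.288% (IP) and 0.986% (PA) in the lambdoid suture, and 1.12% (SM) and 1.6% (PA) in the sagittal suture. Of the 8 calls of members, 7 fell in the coronal suture, where the E16.5 libraries stood apart and the share of all genes called was largest. These calls are by edgeR, while DESeq2 called 10 of 68 such member tests and limma-voom 10 of 80.

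Acan rose from E16.5 to E18.5. In coronal SM it went from 39.5, 104, 51.7, 48.8 and 44.4 CPM to the 185 to 299.9 CPM given above, a difference of 1.95 ± 0.25 (edgeR adjusted p = 4.14e-09). It rose by 2.20 ± 0.25 in coronal FR, by 1.72 ± 0.25 in coronal PA and, away from the coronal suture, by 1.09 ± 0.24 in lambdoid SM (0.00284), where 100.5 to 169 CPM became 222 to 324 CPM. Groups of the 2 ages did not overlap in any of these 4. The other 6 differences were 0.36 to 0.79 and did not pass by edgeR, with the ages still apart in 4 of them, lambdoid IP and PA and sagittal SM (136 to 174 against 227 to 299.8 CPM) and PA. How many of all genes were apart in this way was not counted. DESeq2 and limma-voom each called 5 of the 10 age comparisons of Acan. The summed level of 10 macrophage markers moved with Acan in coronal SM, from 52.1 to 103 CPM up to 210 to 324 CPM, and in coronal FR, from 39.9 to 84.97 CPM up to 121 to 202 CPM. In coronal PA and lambdoid SM it overlapped between the ages. In lambdoid SM the sum of 13 osteoblast markers was higher at E18.5 without overlap, at 17669 to 20862 CPM against 12549 to 15800 CPM. The part of these lists in the result was not tested. Without the coronal E16.5 libraries the frontal SM, sagittal SM and lambdoid PA differences of 0.59, 0.74 and 0.82 passed as well (0.0189, 0.00331 and 0.00134).

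Over the 4 sutures, Acan was higher at E18.5 by 1.10 ± 0.12 in SM (edgeR adjusted p = 1.70e-11) and 1.02 ± 0.10 in OF (9.57e-14). In SM, Sox5 was higher by 0.31 ± 0.10 (0.0380) and Cnmd lower by −1.20 ± 0.38 (0.0254), which makes 3 of 8 members, beside 11.1% of all genes. In OF, Comp was higher by 1.52 ± 0.43 (0.00697), which with Acan makes 2 of 8, beside 17.9% of all genes. The Sox5 call was lost whichever embryo number was left out, at 0.0800 to 0.117, the Cnmd call without embryo 1, 2, 3 or 4, at 0.0512 to 0.118, and the Comp call without embryo 2, at 0.144. In coronal PA, the 51 counts of Comp at E18.5 against 0 at E16.5, at least 19.4-fold over the floor with an exact 95% lower limit of 15.2 for counting error only, came with 47 counts from 1 library, and without that embryo the bound was 1.52-fold and the adjusted p was 0.182.

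Sox6 was lower at E18.5 in coronal SM by −0.59 ± 0.15 (edgeR adjusted p = 0.00146), with the ages apart at 650 to 804 and 389 to 628 CPM after TMM scaling. In CPM of library totals they overlapped, at 449.8 to 722 and 443 to 610 CPM. The call was lost with library totals in place of TMM (−0.24, 0.240), a scaling that moved the median of all genes by 0.355, and with the second coronal libraries (−0.42, 0.248). In coronal FR it was lower by −0.40 ± 0.15 (0.0365), which did not pass without embryo 1, 4 or 5 (0.0714, 0.0933 and 0.520). The value turned to 0.11 (0.618) when library totals replaced the TMM factors. That scaling moved the median of all genes by 0.44 in the same comparison, and relative to these shifts Sox6 stayed lower in both regions. Sox5 in coronal PA was lower by −0.57 ± 0.21 (0.0404), which did not pass without embryo 1, 2 or 4 (0.346, 0.0523 and 0.248). For Sox9, Hapln1, Cnmd and Matn1 no region passed between the ages by edgeR, with 0, 2, 3 and 2 of 10 at an unadjusted p under 0.05, while limma-voom called Cnmd lower in sagittal SM (−2.12 ± 0.35, adjusted p = 4.79e-05). Without the coronal E16.5 libraries, Hapln1 was lower at E18.5 in lambdoid SM (−0.72, 0.0345) and sagittal SM (−0.82, 0.0218), and Cnmd in frontal SM (−1.77, 0.0399) and sagittal SM (−1.97, 0.0236). Without embryo 3 Sox9 was higher at E18.5 in coronal PA (1.18, 0.0284), and without embryo 5 Hapln1 was lower in lambdoid SM (−0.93, 0.0188). The age difference of SM less OF, tested over the 4 sutures, passed for 0 of 8 members by edgeR, DESeq2 and limma-voom, with 2 at an unadjusted p under 0.05, beside 0.703% of all genes. Matn1 is 1 of the 8 but had whole groups without a count, so that edgeR could not decide on it here or in the other mean comparisons.

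The second coronal libraries, 3 embryos for each of the 6 coronal groups, gave the same order for Acan in CPM of library totals, with SM at 86.5, 128 and 92.6 CPM at E16.5 against 34.5 to 58.5 CPM in FR and 10.9 to 37.1 CPM in PA. Sox9 at E16.5 was 2.18, 7.96 and 4.84 CPM in SM, 4.99 to 9.87 CPM in FR and 12.2 to 18.4 CPM in PA. The FR values overlapped those of SM. With these libraries in place of the first ones of the same samples, beside the remaining first libraries, the difference from FR was −0.83 (edgeR adjusted p = 0.0901), so that this call was lost. Sox6 was lower than in the first libraries, at 174 to 430.2 CPM over the 6 groups, and was again highest in SM at both ages. These libraries come from embryos already counted and are no new replicates.

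The libraries of complete sutures at E18.5, 4 for each suture and in CPM of library totals, held more RNA of most members than the captured regions in the lambdoid suture. There Matn1 lay at 364 to 556 CPM and Hapln1 at 676 to 799.7 CPM, against at most 4.11 and 38.9 CPM in any captured lambdoid library of that age. Cnmd lay at 334 to 459.8 CPM against at most 20.7 CPM, Acan at 518 to 594 CPM against 359 CPM, and Sox9 at 64.3 to 77.5 CPM against 18.1 CPM. For 8 members the lowest complete lambdoid library exceeded the highest captured one, the exceptions being Sox5 and Sox6. Per kilobase of exon, the complete lambdoid libraries were led by Matn1 (182 to 278 CPM) and Cnmd (181 to 249.5), ahead of Hapln1 (115 to 135) and Acan (69.3 to 79.6).

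Of the other complete sutures, the sagittal one exceeded every captured library for Hapln1, Cnmd, Comp, Matn1, Matn3 and Snorc, the coronal one for Cnmd, Comp, Matn1 and Matn3, and the frontal one for Cnmd. Acan in the coronal suture had a median of 67.5 CPM in the complete libraries and 123 CPM in the captured ones. Sox6 went the other way, at 97.8 to 220 CPM in complete sutures of all 4 kinds, below the lowest captured library in the coronal, lambdoid and sagittal sutures. The summed level of 15 chondrocyte markers, none of them a member, was 7745 to 9699 CPM in complete lambdoid sutures against 680 to 1746 CPM in captured lambdoid regions of E18.5. Col2a1 was 2774 to 4350 CPM there. Other tissues were also higher in the complete lambdoid sutures, with 8 skeletal muscle markers at 465 to 755 CPM against 1.18 to 31.2 CPM and 9 dura mater markers at 315 to 407 CPM against 29.1 to 75.2 CPM. Their part in the result was not tested. All complete libraries of a suture carry the same replicate number, so that these are values without a test.

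**Figure D4:**
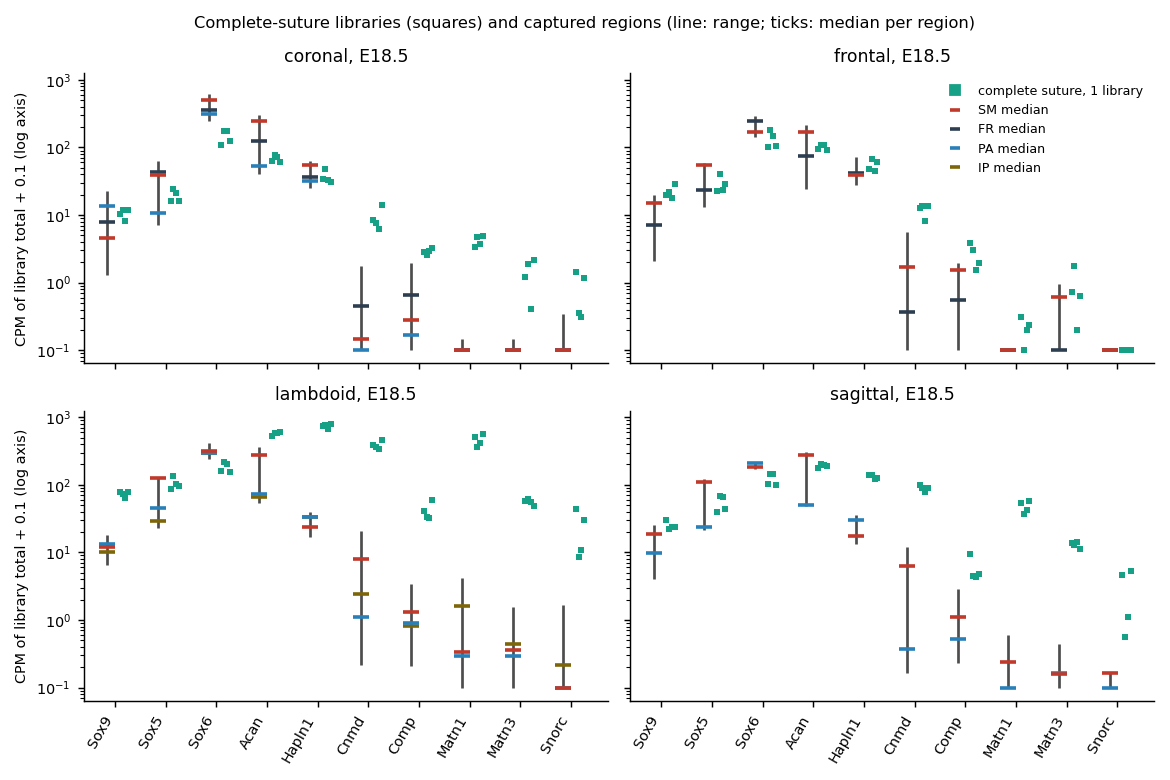
Members in captured regions and complete sutures at E18.5, in CPM of library totals plus 0.1 on a log axis. Squares are complete-suture libraries, lines are the range of the captured libraries and ticks their medians by region. In the lambdoid suture 8 members lie above every captured library when the complete suture was sequenced, while Sox6 lies below.

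In the single-cell data of the coronal suture, cells were clustered without the members, so that the members played no part in drawing the clusters. Of the barcodes, 466 and 337 of the E16.5 libraries and 2412 and 1577 of the E18.5 libraries were kept, with median depths of 2501, 2121, 18476 and 7131 transcripts (UMIs). The kits differed between the ages, so that age and kit cannot be told apart, and cells were not used as replicates. The E16.5 libraries shared 1 barcode with each other and the E18.5 libraries 5. Chondrocyte-like cells formed 1 cluster in each age, of 50 cells at E16.5 (12 and 38 by library) and of 132 in the older pools (121 and 11). They were led by Col2a1, Col9a1, Col9a2 and Col9a3. With a minimum of 500 genes in a cell, in place of 800, the class held 80 and 503 cells, so that the shares below rest on that filter.

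Most UMIs of the matrix genes lay in these few cells at E16.5. The chondrocyte-like cells held 96.4% and 97.4% of all Matn1 UMIs in the 2 libraries, 100% and 100% of Matn3 (21 and 37 UMIs), 94.4% and 98.9% of Snorc, 95.7% and 98.3% of Comp and 94.5% and 89.7% of Cnmd. Hapln1 followed with 89.3% and 93.2% and Acan with 73.2% and 83.9%. In the same cells the levels were 3240 and 3099 CPM for Hapln1, 2410 and 3005 for Acan and 2099 and 2522 for Matn1. The macrophage-like cells, which should lack these RNAs, held 0 UMIs of all 10 members in 111 cells. With 158364 and 82439 UMIs in these cells, 0 UMIs has a 95% upper limit of 23.3 and 44.8 CPM for each gene. Levels below these limits could go unseen.

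At E18.5 the share in chondrocyte-like cells was smaller, at 80.9% and 54.6% for Matn1, 62.1% and 28.3% for Hapln1 and 31.4% and 10.9% for Acan. The second library held 11 such cells. Macrophage-like cells, the measure of free RNA, then held Matn1 at 6.64 and 5.88 CPM and Snorc at 23.7 and 11.8 CPM. For Matn1, the other 10 clusters were at 0 to 13.99 CPM, the highest in cluster 8 of the first library, and after thinning each cell to 1000 UMIs 33.1% and 45.5% of chondrocyte-like cells and 0% of macrophage-like cells held a UMI.

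Acan, Sox9 and, at lower levels, Hapln1 stood above that level outside the cells named chondrocyte-like. In E18.5 cluster 5, which was led by Gpha2, Nppc and Scara5 and stays unnamed, Acan was 142 and 197.5 CPM, and in cluster 8, led by Atp1b1 and Itih5, it was 153 and 183 CPM, against 17.3 and 10.8 CPM in macrophage-like cells. Cluster 5 came nearest to the chondrocyte list, with Matn4 of that list among its leading genes and 2 markers past the cut, too few for the name. Whether its cells count as chondrocyte-like rests on that cut. The 95% Poisson intervals of cluster 5, which cover counting error only, were 133 to 152 and 160 to 241 CPM. Sox9 was 64.6 and 74.6 CPM in cluster 5 and 59.7 and 85.8 CPM in cluster 8, against 7.96 and 1.96 CPM. After thinning to 1000 UMIs, 18.2% and 12.9% of cluster 5 cells held Acan, against 1.81% and 0% of macrophage-like cells. Hapln1 was 35.4 (30.1 to 41.2) and 40.3 (30.8 to 51.9) CPM in cluster 7, against 14.8 and 4.90 CPM in macrophage-like cells. In clusters 1, 4 and 5 Hapln1 was 24.7 to 33.2 CPM, and the remaining clusters outside the chondrocyte-like cells were at 4.90 to 28.6 CPM.

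Sox6 had the widest distribution of the members. Chondrocyte-like cells held 31.4% and 18.4% of its UMIs in the E16.5 libraries and 9.71% and 0.563% in the E18.5 libraries. In E18.5 clusters 1, 4 and 7, led by Gpx3 and Lum, by Tppp3 and Tnn, and by cell-cycle genes, it was 42.7 to 55.0 CPM in the first library and 75.1 to 84.0 CPM in the second, against 5.14 and 6.86 CPM in macrophage-like cells. Its level in chondrocyte-like cells was 69.8 (59.4 to 81.4) and 62.4 (17.01 to 160) CPM, and in cluster 8, where Sox9 was high, it was 5.22 and 0 CPM. Sox5 was highest in chondrocyte-like cells in all 4 libraries, at 259, 255, 102 and 172 CPM.

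**Figure D5:**
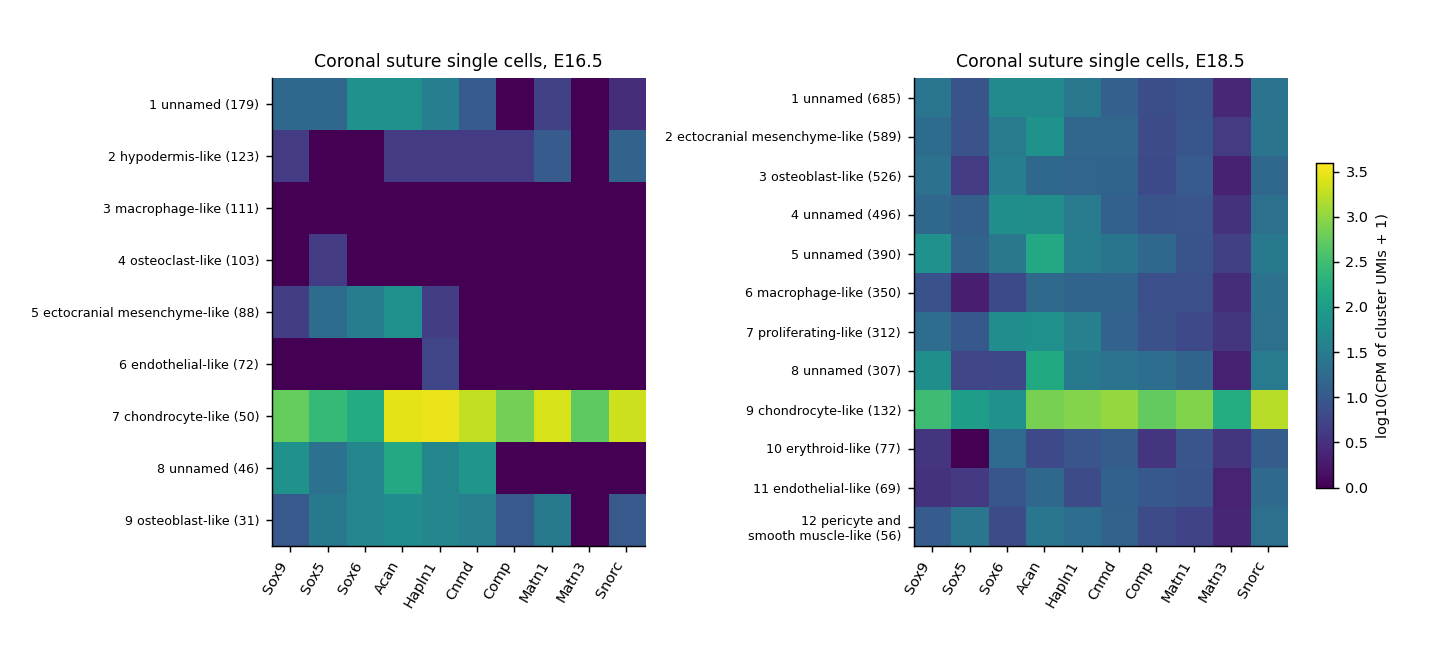
Level of each member in each single-cell cluster at E16.5 and E18.5, as log10 of CPM + 1 of the summed UMIs of both libraries, with cell numbers in brackets. The chondrocyte-like row holds signal of all 10 members, and Sox6, Acan, Sox9 and Hapln1 are also seen in other clusters. At E18.5 the Sox6 level of that row is close to that of some other clusters.

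Other genes of cartilage, in 3 lists drawn up for context, did not move as a block in the mean of SM less OF. Of 14 tested cartilage collagens and other matrix genes, 7 were higher in SM, 3 lower and 4 did not pass, beside 55.4% of all genes called, with a median of 1.14 beside 0.04 over all genes. Matn4, a matrilin, was higher by 2.12 ± 0.23 (edgeR adjusted p = 7.70e-14), while the collagen chain gene Col11a2 was lower by −4.75 ± 0.14 (4.07e-49) and Chad by −2.12 ± 0.19 (1.16e-17). Of 14 regulators and receptors, 1 was higher and 9 lower, with a median of −0.60, among them the hedgehog ligand gene Ihh (−4.48 ± 0.25), Mef2c (−2.68 ± 0.08) and Runx3 (−2.30 ± 0.10), which all act in bone as well. Of 16 genes of proteoglycan assembly and breakdown, 3 were higher and 6 lower, with a median of 0.07, among them Hapln4 (−4.68 ± 0.29), Bcan (−2.37 ± 0.43) and the sulfotransferase gene Chst11 (−2.02 ± 0.09).

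Between the ages, the cartilage matrix list did not share the rise of Acan. In SM, 2 of its 14 genes were higher at E18.5 and 4 lower, beside 11.1% of all genes called, with Ucma at 2.02 ± 0.54 (edgeR adjusted p = 0.00639), Col2a1 at −1.81 ± 0.30 (3.09e-06) and Col9a3 at −1.36 ± 0.23 (6.37e-06). In OF, 3 were higher and 2 lower, beside 17.9% of all genes, with Col2a1 at −1.58 ± 0.25 (5.03e-07), Col27a1 at 0.89 ± 0.07 (6.19e-19) and Col9a3 at −0.69 ± 0.19 (0.00613). Of the regulators, 2 were higher and 1 lower in SM, where Zbtb20 was at 0.64 ± 0.11, Wwp2 at 0.37 ± 0.09 and Runx2 at −0.30 ± 0.07, and 4 were higher and 2 lower in OF, where Zbtb20 was at 0.70 ± 0.09, Arid5a at 0.68 ± 0.17 and Wwp2 at 0.65 ± 0.07. Of the proteoglycan genes, 1 was higher and 1 lower in SM, Chst11 at 0.54 ± 0.13 and Adamts5 at −0.50 ± 0.12, and 2 were higher and 1 lower in OF, Adamts1 at 0.72 ± 0.10, Ugdh at 0.35 ± 0.09 and Slc26a2 at −0.18 ± 0.05.

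The genes whose group means of log2 CPM over the 20 groups were most like each member are given by their Pearson r, without a test, since the groups share sutures and embryos. For Sox9 they were Tsku (0.873) and Lrp10 (0.85), for Sox5 Sorbs2 (0.878) and Cntn3 (0.861), and for Sox6 Spred2 (0.936) and Hs2st1 (0.927). For Acan they were Scube2 (0.943) and Ltbp3 (0.939), for Hapln1 Mum1l1 (0.834) and Gm29488 (0.796), and for Cnmd Adamts7 (0.945) and Pcdh19 (0.945). For Comp they were Bphl (0.919) and Slc16a11 (0.914), and for Matn1 Car10 (0.934) and Mab21l2 (0.909). Comp and Matn1 reached a mean of 1 CPM in only 5 and 3 of the 20 groups, so that their r rests mostly on groups near the floor. No member appeared among the nearest genes of another.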

How the data were processed

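The authors amplified RNA of laser-captured regions, aligned reads to mm10 with STAR 2.5.3a and deposited raw counts per gene from featureCounts 1.6.4, made without regard to strand, so that overlapping antisense genes share reads. For single cells the authors deposited UMI counts of called barcodes. A deposited table of log2 values holds the authors' own comparisons and was not used. A gene was tested where more than 10% of the 100 first libraries reached 1 CPM. Counts were scaled by TMM and tested in edgeR 4.0.16 (R 4.3.3) with 1 mean per group over all 20 groups, two-sided, with Benjamini-Hochberg adjustment in each comparison. SEs were taken from the fitted difference and its F value. Libraries of 1 embryo share a litter label and a number, so numbers pair SM with OF. Over 60 such pairs the residuals had a median correlation of 0.0505, against −0.0121 for other embryos, and 16 exceeded 0.1. Second coronal libraries were not tested in the main fit, since their preparation is not described in the labels. Cells with over 800 genes, within 3 median absolute deviations for quality measures, were clustered with scanpy 1.11.5 (13 components, resolution 0.8) for each age by itself, without the members. No doublet caller was used, and doublets are a limit. Named were all members, up to 3 called genes of each context list and mean comparison with the largest difference, and the 2 genes most like each member. The members, lists and tests were chosen with earlier results of these data known. The alternatives were DESeq2 1.42.0, limma-voom 3.58.1, other scalings and filters, a replicate block and separate fits. Further ones were second libraries in place of the first ones of the same samples, and each replicate number left out of all groups. On simulated counts the test was checked for recovery of known changes.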

Additional observations from a re-analysis of the deposited data

Results flagged for a closer look

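Of 118 member and group combinations with enough signal, 10 held a library far from the other 4 of its group, where chance alone marks about 1 in 20. Sox9 was 25.5 CPM in embryo 3 of coronal FR at E16.5 (others 4.72 to 5.97), 1.25 in embryo 2 of coronal SM at E18.5 (3.71 to 4.64) and 4.03 in embryo 5 of sagittal PA at E18.5 (9.07 to 10.4). Sox5 was 29.1 in embryo 4 of sagittal PA at E16.5 (25.5 to 26.5), and Sox6 was 337 in embryo 4 of lambdoid PA at E16.5 (242 to 255). Acan was 104 in embryo 2 of coronal SM at E16.5 (39.5 to 51.7), and Hapln1 was 86.7 in embryo 5 of coronal FR at E16.5 (32.6 to 47.7). Cnmd was 43.5 in embryo 4 of lambdoid SM at E16.5 (11.5 to 18.1) and 5.57 in embryo 2 of lambdoid IP at E18.5 (1.78 to 2.41), and Matn1 was 7.47 in embryo 5 of lambdoid IP at E16.5 (1.17 to 2.46).

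The SM less OF difference of the coronal suture differed from that of the other sutures for Sox9 (−2.12 ± 0.31), Sox5 (−0.96 ± 0.15) and Sox6 (0.79 ± 0.11) by the test of the difference in edgeR.

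The complete lambdoid sutures, outside the tests, held RNA of genes that were near 0 in the captured regions. The medians of 4 libraries were 467 CPM for Matn1 (364 to 556), 56.4 for Matn3 (48.1 to 60.9), 37.1 for Comp (32.5 to 59.5) and 20.4 for Snorc (8.54 to 43.2).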

How the results depend on the processing

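The count of calls in SM was 31 to 37 under all alternatives (34 as reported), with 33 to 34 when 1 embryo number was left out. Calls in OF, 6 as reported, were 3 with the second coronal libraries in place of the first and 3 to 7 over the embryo numbers. Calls higher at E18.5, 5 as reported, were 9 when each suture was fitted by itself and 4 to 7 over the embryo numbers. Calls lower at E18.5, 3 as reported, were 1 without the low-count filter, 8 with each suture by itself, 0 with the second coronal libraries and 1 to 3 over the embryo numbers. The mean comparisons gave 5 members for SM less OF for every embryo number left out, 1 to 2 (3 as reported) for the ages in SM, 1 to 2 (2 as reported) in OF and 3 to 4 (3 as reported) for the coronal difference. Without the coronal E16.5 libraries, an alternative chosen after seeing the data, the mean of SM less OF gave 6 members and the coronal difference 4. The share of all genes called in that refit was not counted. The value that reversed was Sox6 between the ages in coronal FR, at 0.11 with library totals. The causes were not tested.

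The replicate block gave 37 calls in SM and 7 in OF and changed no call beside those given with Sox9, Sox6, Hapln1 and Cnmd, and the ages cannot carry a block, since each embryo has 1 age. With SM and OF fitted within each suture and age, and the ages within each suture, 23 calls were gained, 13 lost and 140 of 176 kept their side. Among them every member call between SM and OF of the coronal suture at E16.5 was lost. In these fits the share of all genes called was counted for that suture and age only. The chondrocyte-like cells numbered 50 at E16.5 and 132 at E18.5, and were 80 and 503 with a minimum of 500 genes and 27 at E16.5 with 1000 genes. Depth limits Comp, Matn1, Matn3 and Snorc, whose group means did not exceed 2.84 CPM.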
